A study of Mus musculus with 8 samples.

Results

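The Polycomb group RING finger (PCGF) genes and their partners were followed through melanocyte stem cells with and without a deletion of Bmi1. The 8 members are Bmi1 itself, the 5 paralogs Pcgf1, Pcgf2, Pcgf3, Pcgf5 and Pcgf6, and the 2 RING ligase genes Ring1 and Rnf2. They were found by symbol among the 54418 Ensembl genes of the deposited tables, each symbol with 1 identifier, and all 8 passed the filter on low counts, which left 16011 genes. The question was whether the loss of Bmi1 was met by a change in its paralogs.

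Libraries came from Dct-driven GFP-positive, non-autofluorescent live cells sorted from dorsal skin of mice at postnatal day 21, on a mixed C57Bl-6;129Sv background. The Bmi1-deleted group (4 libraries) had the genotype Bmi1 fl/fl with Tyrosinase-Cre, Dct-rtTA and TRE-H2B-GFP, and the control group (4 libraries) had Bmi1 fl/fl with Dct-rtTA and TRE-H2B-GFP and no Cre. Both groups were fed doxycycline pellets, which switch on the histone-GFP reporter. Tyrosinase-Cre acts in the pigment lineage, and as the controls lacked Cre, an effect of Cre itself and one of the deletion cannot be told apart. No label says that the replicates were separate mice, and the tests see only how much these libraries vary.

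Libraries held 9076517 to 10368174 counts in the Bmi1-deleted group and 8882656 to 9466711 in the control group. All 10 melanocyte markers on the list used were detected and tested, with a summed level of 5448 to 11068 CPM in Bmi1-deleted and 9545 to 15605 CPM in control libraries (CPM, counts scaled to a library of 1e+06 by TMM). Only 1 of the 10 had a log2 change above 0 (median −0.66), and 0 passed. Of the 17 fibroblast markers 0 were without counts, 14 of the 15 tested had a log2 change above 0, and 0 passed. The 17 summed to 8722 to 18459 CPM in Bmi1-deleted against 5152 to 8830 CPM in control libraries, which overlapped. The 7 Schwann cell markers, of which 0 passed, all had a log2 change above 0. They summed to 3276 to 4236 CPM in Bmi1-deleted and 1825 to 3125 CPM in control libraries, without overlap. The 6 immune markers summed to 76.4 to 93.8 CPM in Bmi1-deleted and 48.2 to 73.0 CPM in control libraries, also without overlap. Sums of the keratinocyte, endothelial, and muscle and pericyte markers overlapped between the groups. The part of these cell types in the results was not tested. Bmi1-deleted library 1 and control libraries 1 and 3 had Xist counts of female mice and the others did not. In sorted bulk samples, fewer cells of a type and less RNA per cell cannot be told apart.

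Polycomb repressive complex 1 (PRC1) places ubiquitin on histone H2A at silenced developmental genes. Its catalytic core pairs a RING ligase, Ring1 (RING1A) or Rnf2 (RING1B), with a single PCGF protein, and the PCGF protein decides which further subunits join. Bmi1 (PCGF4) and Pcgf2 (MEL18) belong to canonical PRC1 with chromobox and polyhomeotic proteins, while Pcgf1, Pcgf3, Pcgf5 and Pcgf6 build variant complexes that do not need the repressive mark of PRC2 to find their targets. Bmi1 is known for silencing the Ink4a/Arf locus in stem cells.

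Bmi1 (ENSMUSG00000026739) lies on mm10 chromosome 2, 18677018 to 18686629, plus strand, and its neighbour Commd3 stops 787 bases before its start. Rnf2 (ENSMUSG00000026484) lies on chromosome 1, 151458004 to 151500955, minus strand. The promoters of this pair are shown because they were the only members, of 8, whose CPM (counts scaled for library size) did not overlap between the groups. Each window runs from 250 bases before to 50 bases after the transcript start (RefSeq, GRCm38.p6), chr2:18676768-18677067 on the plus strand for Bmi1 and chr1:151500942-151501241 on the minus strand for Rnf2. Capitals mark the E-box CACGTG and the GC box GGGCGG, searched on both strands, with overlapping GC boxes run together.
Bmi1: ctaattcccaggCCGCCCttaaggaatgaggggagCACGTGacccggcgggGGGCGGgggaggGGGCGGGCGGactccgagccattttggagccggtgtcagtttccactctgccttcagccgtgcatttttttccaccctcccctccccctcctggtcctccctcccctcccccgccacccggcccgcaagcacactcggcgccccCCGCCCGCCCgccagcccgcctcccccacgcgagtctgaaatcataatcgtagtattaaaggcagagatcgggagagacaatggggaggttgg
Rnf2: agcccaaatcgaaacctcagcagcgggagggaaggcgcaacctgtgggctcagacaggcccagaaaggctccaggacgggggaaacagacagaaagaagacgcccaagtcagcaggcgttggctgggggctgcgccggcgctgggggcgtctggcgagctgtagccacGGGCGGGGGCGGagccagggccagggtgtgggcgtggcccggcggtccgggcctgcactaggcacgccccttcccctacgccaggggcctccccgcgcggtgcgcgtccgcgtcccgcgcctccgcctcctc
The Bmi1 window held 1 E-box and 6 GC boxes at a G+C content of 66.3%, and the Rnf2 window 0 E-boxes and 2 GC boxes at 72.7%. Over the 32851 promoter windows of the same length 7.15% held this E-box and 35.7% this GC box, at a lower median G+C content of 52.7%. The letters were not particular to this pair. The window of Pcgf2, whose CPM overlapped between the groups, held 1 E-box and 1 GC box, and that of Pcgf3 0 of either. A match describes the letters and not a site in use.

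Bmi1, the targeted gene, was only modestly lower in whole-gene counts. It had 627, 713, 626 and 607 counts in the Bmi1-deleted libraries, against 796, 743, 705 and 859 in the control libraries. Scaled for library size these were 69.2, 70.8, 69.6 and 68.8 CPM in Bmi1-deleted and 84.6, 76.5, 75.4 and 97.2 CPM in control libraries. Every deleted library lay below every control library, and the deleted libraries stood closer together than counting alone would leave them, with a coefficient of variation of 1.26% against 3.94% for counting error. The control libraries varied by more than their counting error of 3.59%. The mean was 69.6 ± 0.880 CPM in Bmi1-deleted and 83.4 ± 10.0 CPM in control libraries (SD, n = 4 each), 83.4% of control. Bmi1 did not pass edgeR's quasi-likelihood test across all genes (log2 change −0.26, SE 0.12, 95% interval −0.53 to 0.003, adjusted p = 0.607).

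The second deposited table, in TPM (abundance divided by transcript length and scaled to a sum of 1e+06), gave a larger difference for Bmi1. It stood at 14.3, 19.5, 11.7 and 7.96 TPM in the Bmi1-deleted libraries and at 36.4, 34.98, 24.2 and 26.1 TPM in the control libraries. The groups again did not overlap, and Bmi1-deleted library 2 was the nearest to the controls. The geometric mean ratio was 42.4% of control (log2 −1.24, p = 0.0286 in an exact permutation test, two-sided, and the lowest value 70 assignments allow; n = 4 each). With libraries paired by replicate number the exact test gave p = 0.125, the lowest that 16 sign changes allow, with Bmi1 lower in 4 of 4 pairs. In a limma fit of the deposited log2(TPM + 1) across all genes Bmi1 did not pass (−1.17, adjusted p = 0.414), and the median of all genes there was −0.14.

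**Figure D1:**
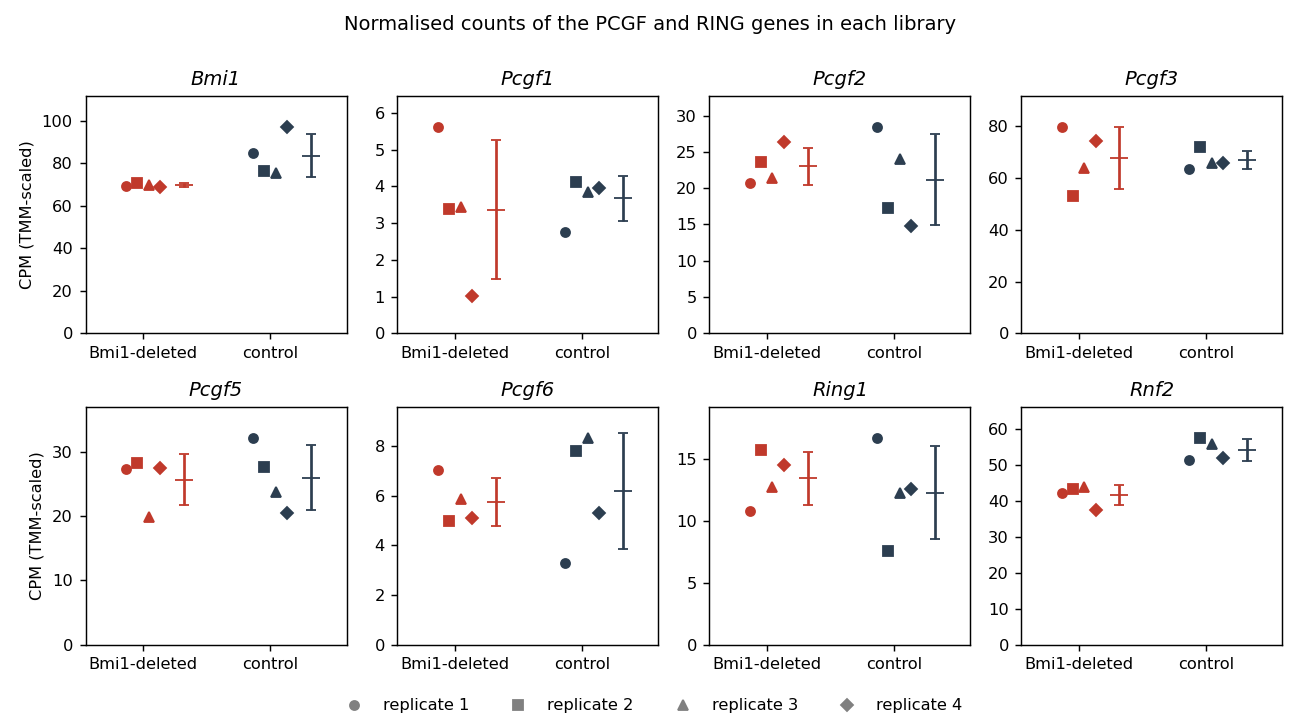
Normalised counts (CPM, TMM-scaled, axes from 0) of the 8 members in each library, Bmi1-deleted in red on the left and control in dark blue on the right; marker shapes give the replicate number, and bars the mean ± SD of 4 libraries. Bmi1 (68.8 to 70.8 against 75.4 to 97.2 CPM) and Rnf2 (37.5 to 43.8 against 51.2 to 57.5 CPM) do not overlap between the groups, and the other 6 members do.

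Counts and TPM of a gene differ by the length that the quantifier gave it, which follows the mix of annotated transcripts that reads were assigned to. That length was put on a scale of bases with 768 genes of a single annotated transcript of at least 1500 bases and at least 30 counts. Of these, 90% came out within 93.1% to 104% of their annotated length in every library. The scale was not checked on shorter transcripts. Bmi1 has 7 annotated transcripts, 2 long ones (3594 and 2747 bases) and 5 short ones of 359 to 713 bases. The short ones end before the last part of the gene, and of the long ones only that of 3594 bases reaches the annotated gene end. Its implied length was 1418, 1033, 1727 and 2072 bases in the Bmi1-deleted libraries, against 840, 1005, 890 and 888 bases in the control libraries. All 4 deleted libraries were higher than all 4 controls, by a wide margin in libraries 1, 3 and 4 and by a narrow one in library 2. The mean was 1563 ± 443 bases in Bmi1-deleted and 905 ± 69.9 bases in control libraries (SD, n = 4 each), 173% of control, and 21 of 8934 genes with at least 100 counts on average had a larger ratio. This measure was chosen after the Bmi1 values were known and is given without a test. The quantifier thus gave Bmi1 a longer transcript mix in the deleted libraries. The exons that the floxed allele loses are not known from the sources used here.

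Commd3, a gene of the COMM domain family that ends just upstream of Bmi1, served as the neighbour. It held 234, 282, 240 and 219 counts in Bmi1-deleted and 234, 300, 189 and 206 in control libraries. These overlapped, and it did not pass (log2 change 0.09, SE 0.18, edgeR adjusted p = 0.96). Its implied length was 697 to 725 bases in Bmi1-deleted and 540 to 654 bases in control libraries, also without overlap, with 741 of 8934 genes at a larger ratio. Groups apart in this direction were found for 1.21% of those genes, and in either direction for 2.7%. Of the other members Pcgf2, Pcgf3, Pcgf5, Ring1 and Rnf2 were among the 8934 genes, and their implied lengths overlapped between groups. They spread widely within a group, as with 585 to 2184 bases for Ring1 in control libraries. The other neighbours within 50000 bases were Spag6, with 33 counts over all libraries, and Gm13352 and Gm13355, each with 0.

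**Figure D2:**
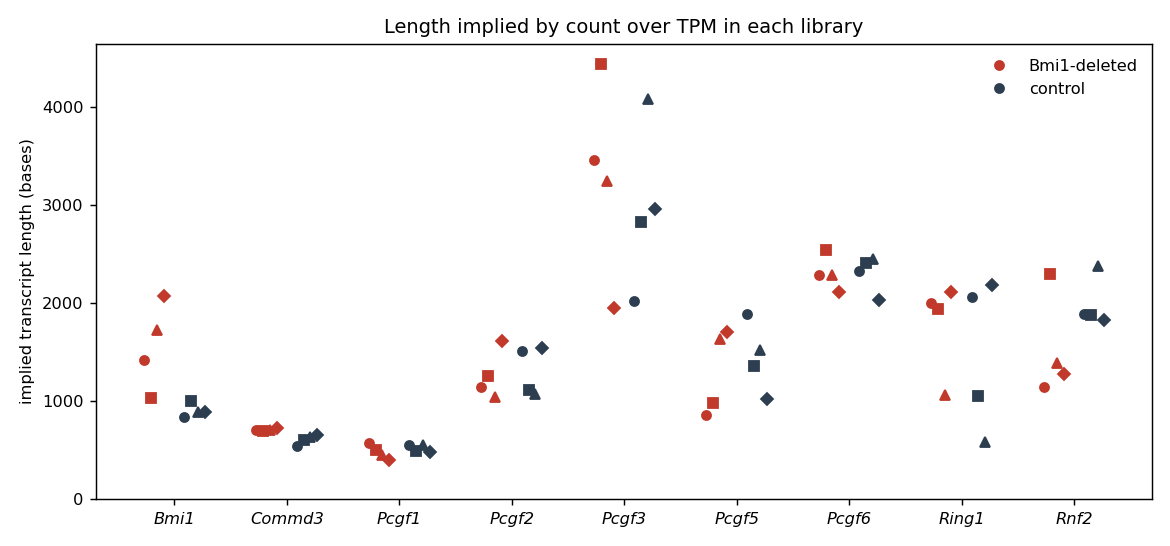
Transcript length in bases implied by the ratio of count to TPM, for Bmi1, its upstream neighbour Commd3 and the other members, 1 point per library, Bmi1-deleted in red to the left of control in dark blue; shapes give the replicate as in the plot of normalised counts. Bmi1 spans 1033 to 2072 bases in Bmi1-deleted and 840 to 1005 bases in control libraries, and the other 7 members overlap.

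Pcgf2, the closest paralog of Bmi1 and its alternative in canonical PRC1, showed no difference beyond the spread of the libraries. It had 20.7, 23.5, 21.4 and 26.4 CPM in the Bmi1-deleted libraries and 28.5, 17.3, 24.1 and 14.8 CPM in the control libraries. The deleted libraries lay inside the range of the controls, whose coefficient of variation was 29.5%. The log2 change was 0.12 (SE 0.23, edgeR adjusted p = 0.951), and its 95% interval of −0.37 to 0.61 reaches a rise of at most 1.52-fold.

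Pcgf3 and Pcgf5, which share a variant complex type with AUTS2 and casein kinase 2, likewise overlapped between groups. Pcgf3 stood at 79.9, 53.1, 63.8 and 74.5 CPM in Bmi1-deleted and at 63.7, 71.9, 65.8 and 66.0 CPM in control libraries. Here the deleted libraries were the more scattered, on both sides of the controls. The log2 change was 0.02 (SE 0.14, edgeR adjusted p = 0.987) with an interval of −0.29 to 0.33, the narrowest among the 5 paralogs, so that a rise above 1.26-fold lies outside it.

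Pcgf5 stood at 27.4, 28.2, 19.8 and 27.4 CPM in Bmi1-deleted and at 32.2, 27.6, 23.8 and 20.5 CPM in control libraries. Bmi1-deleted library 3 was the lowest of all 8, while the other deleted libraries lay within the control range. The log2 change was −0.02 (SE 0.20, edgeR adjusted p = 0.991) with an interval of −0.45 to 0.41, up to 1.33-fold.

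Pcgf1, which joins BCOR and KDM2B in the variant complex that binds unmethylated CpG islands, and Pcgf6, the subunit of a complex with MGA and L3MBTL2 that silences germ line genes, were the members with the fewest counts. Pcgf1 had 51, 34, 31 and 9 counts in Bmi1-deleted and 26, 40, 36 and 35 in control libraries. Bmi1-deleted libraries 1 and 4 were the highest and the lowest of all 8. Pcgf1 had a log2 change of −0.12 (SE 0.54, edgeR adjusted p = 0.982) with an interval of −1.28 to 1.03, which reaches 2.04-fold upwards. The deleted libraries varied by 55.9%, against a counting error of 17.9%.

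Pcgf6 had 64, 50, 53 and 45 counts in Bmi1-deleted and 31, 76, 78 and 47 in control libraries. The controls bracketed the deleted libraries. Its log2 change was −0.11 (SE 0.39, edgeR adjusted p = 0.981), and the interval of −0.94 to 0.73 reaches 1.66-fold upwards.

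Rnf2, the main H2A ubiquitin ligase of PRC1 in mouse embryonic stem cells, had the lowest unadjusted p of the members in the edgeR fit of counts. It had 381, 434, 394 and 331 counts in Bmi1-deleted and 482, 558, 520 and 459 in control libraries, or 42.0, 43.1, 43.8 and 37.5 CPM against 51.2, 57.5, 55.6 and 51.9 CPM. Every deleted library was below every control library, and both groups varied little, by 6.79% and 5.52%. The mean was 41.6 ± 2.83 CPM in Bmi1-deleted and 54.1 ± 2.98 CPM in control libraries (SD, n = 4 each), 77.0% of control. The log2 change was −0.38 (SE 0.13, 95% interval −0.66 to −0.09), with an unadjusted p of 0.0131 and an adjusted p of 0.444 in edgeR, so Rnf2 did not pass. In the rescaled TPM, described with the levels of the family, the difference was not seen, with 67.6, 33.9, 57.7 and 52.5 in Bmi1-deleted and 50.9, 59.8, 41.7 and 51.5 in control libraries (limma log2 change 0.02, adjusted p = 0.993). Its implied length was shorter in Bmi1-deleted libraries 1, 3 and 4 (1146 to 1390 bases) than in all controls (1827 to 2375 bases), but not in library 2 (2297 bases).

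Ring1, the other ligase, stood at 10.8, 15.7, 12.7 and 14.5 CPM in Bmi1-deleted and at 16.7, 7.52, 12.2 and 12.6 CPM in control libraries. The controls again bracketed the deleted libraries. Its log2 change was 0.13 (SE 0.28, edgeR adjusted p = 0.958) with an interval of −0.46 to 0.73, up to 1.66-fold.

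Of the 8 members 0 rose and 0 fell at an edgeR adjusted p under 0.05, where 0.0937% of the 16011 tested genes passed (14 higher and 1 lower; the lower call is 0.00625%). At an unadjusted edgeR p under 0.05 there was 1 member, Rnf2, against 8.27% of all genes. On rescaled log2 TPM the lowest was that of Bmi1, at an unadjusted limma p of 0.000894 (adjusted p = 0.325). DESeq2 called 0 members (1.01% of all genes), and limma on either form of the TPM also 0. With the replicate number as a block 273 genes rose and 113 fell, 2.41% of those tested, and 0 members were among them (lowest adjusted p 0.232, Rnf2). The CPM did not overlap between groups for 2 members, Bmi1 and Rnf2, both lower, against 5.18% of all genes in either direction and 2.39% lower. A p that misses the threshold does not show that a paralog was unaffected. The intervals above are those of the counts without the block, and state which rises that fit still allows. On rescaled log2 TPM the upper ends of the 95% intervals in limma were higher for Pcgf2 (0.75), Pcgf3 (0.60) and Pcgf5 (0.82). They were lower for Pcgf1 (0.65), Pcgf6 (0.71) and Ring1 (0.61).

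**Figure D3:**
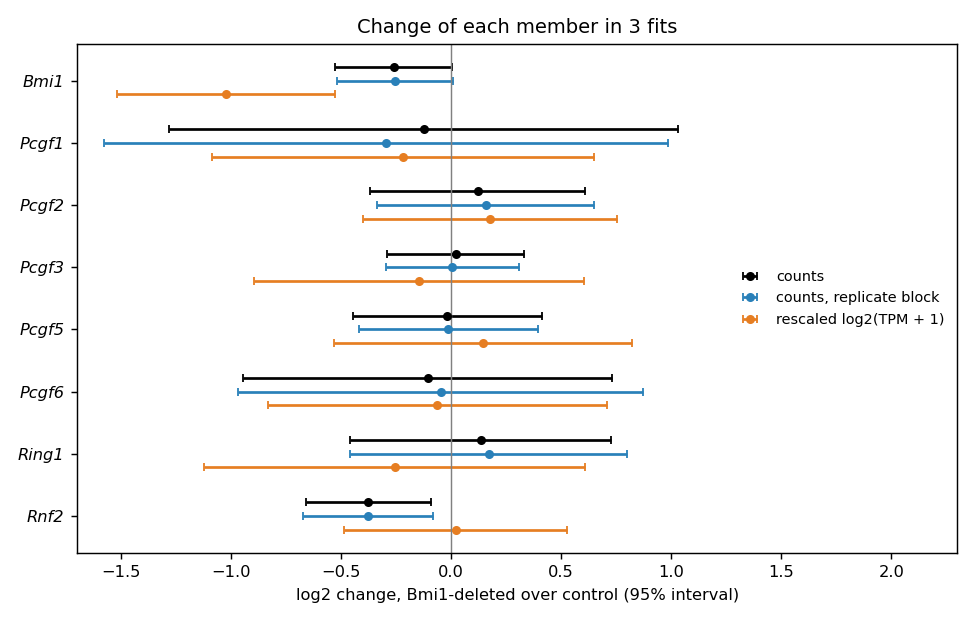
Log2 change of each member, Bmi1-deleted over control, with its 95% interval, in the edgeR fit of counts (black), the same with the replicate number as a block (blue) and limma on rescaled log2(TPM + 1) (orange); 8 libraries in each. Intervals of Pcgf1, Pcgf2, Pcgf3, Pcgf5, Pcgf6 and Ring1 include 0 in all 3 fits. That of Rnf2 excludes 0 in both fits of counts (−0.66 to −0.09 without the block), and that of Bmi1 only in the fit of TPM (−1.52 to −0.53).

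Levels of different genes were compared per length, in TPM rescaled to 1e+06 after leaving out 3 RNA genes above 1% of a library's TPM (Gm23935, mt-Rnr1 and mt-Rnr2). Gm23935 alone held 73.7% to 85.6% of the deposited TPM, so deposited TPM of all other genes depend on it. In control libraries Bmi1 was the most abundant member at 172 ± 25.6 rescaled TPM (SD, n = 4), above Rnf2 at 51.0 ± 7.43 with no overlap. Pcgf3 (44.5 ± 13.1), Pcgf5 (34.0 ± 5.19) and Pcgf2 (30.8 ± 9.71) followed, then Ring1 (19.2 ± 12.1) and Pcgf1 (13.3 ± 3.07), and each of these overlapped with its neighbour in the order. Pcgf6 came last at 4.95 ± 1.68, below Pcgf1 with no overlap. In control CPM Bmi1 stood above 84.3% of the tested genes and Pcgf1 above 24.0%.

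In the Bmi1-deleted libraries the order of the 8 means was the same, but the distance at the top was smaller. Bmi1 had 89.9, 124, 73.7 and 59.1 rescaled TPM in these libraries, against 189, 149, 151 and 198 in the controls. It stood at 86.6 ± 27.8 in the Bmi1-deleted group (SD, n = 4) and overlapped with Rnf2 (52.9 ± 14.1), as it did not in controls, while Pcgf2 and Ring1, which overlapped in controls, did not. Its ratio to control was 49.0% (log2 −1.03).

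Bmi1 made up 36.2%, 50.1%, 39.1% and 30.5% of the summed rescaled TPM of the 6 PCGF genes in Bmi1-deleted libraries, against 57.7%, 51.1%, 56.7% and 63.5% in control libraries. The groups did not overlap, with Bmi1-deleted library 2 close to control library 2. The 5 other PCGF genes summed to 159, 123, 115 and 135 in Bmi1-deleted and to 139, 143, 115 and 114 in control libraries. Those sums overlapped (133 ± 19.1 against 128 ± 15.2; SD, n = 4 each), while the sum of all 6 was lower in the deleted libraries, at 188 to 248 against 266 to 328. In counts, where Bmi1 changed less, its share of the 6 genes was 33.0% to 38.5% in Bmi1-deleted and 37.3% to 46.8% in control libraries, which overlapped. Rnf2 made up 69.9% to 87.2% of the summed RING genes in Bmi1-deleted and 52.9% to 83.2% in control libraries. These shares are descriptions over chosen members and were given no test.

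**Figure D4:**
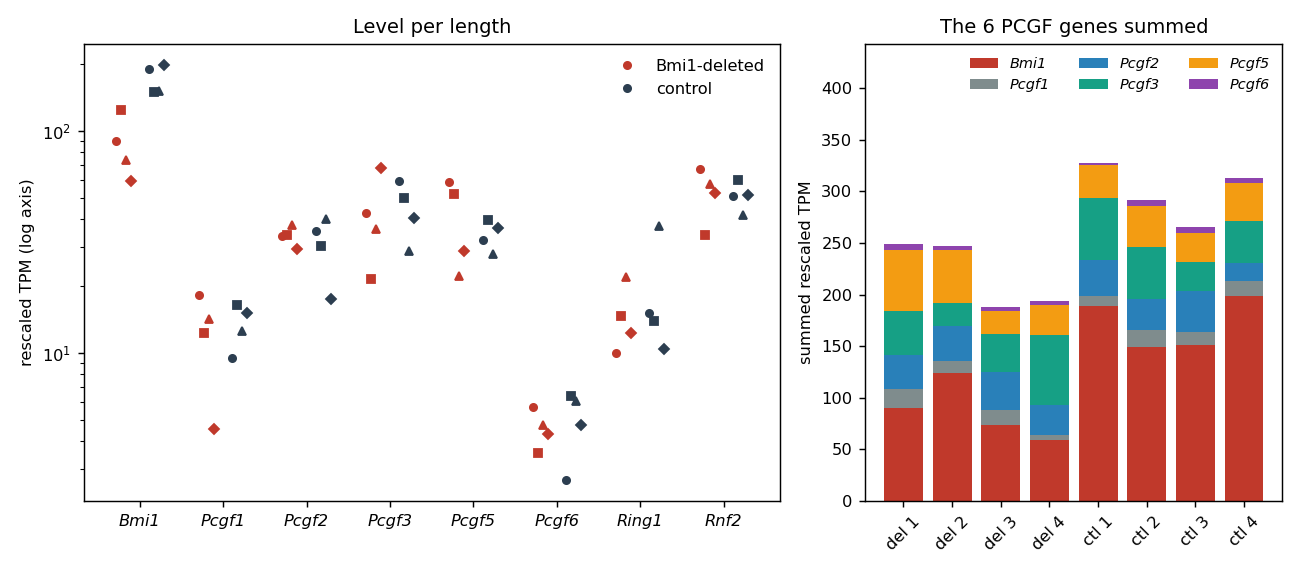
Left, rescaled TPM (log axis) of each member in each library, Bmi1-deleted in red to the left of control in dark blue, shapes giving the replicate. Right, the rescaled TPM of the 6 PCGF genes stacked for each library (del, Bmi1-deleted; ctl, control). The stack is 188 to 248 in Bmi1-deleted and 266 to 328 in control libraries, with the difference in the Bmi1 segment at its base.

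A score of the fibroblast markers, which was not their summed CPM, served as a covariate. Bmi1-deleted library 4 lay within the control range of this score, and the other deleted libraries lay above that range. Score and group thus went largely together, and a fit of 8 libraries can hardly separate them. With the score Bmi1 had a log2 change of −0.27 (SE 0.15, edgeR adjusted p = 0.604) and Rnf2 of −0.44 (SE 0.17, adjusted p = 0.407). Without it they had −0.26 (SE 0.12) and −0.38 (SE 0.13). Pcgf1 moved most, to −1.06 (SE 0.72, adjusted p = 0.667). With sex as a covariate Bmi1 had −0.28 and Rnf2 −0.38. Among the paralogs and Ring1 the sign of the log2 change depended on which libraries or which table was used, in Pcgf1, Pcgf2, Pcgf3, Pcgf5, Pcgf6 and Ring1 alike.

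The genes whose CPM followed Bmi1 most closely were found as those with the smallest root mean square difference of mean-centred log2 CPM over the 8 libraries, among 8492 named genes. They were Cenpc1, a centromere protein (0.056), Sae1, a subunit of the SUMO-activating enzyme (0.057), Paics, an enzyme of purine synthesis (0.060), Cd63, a tetraspanin of melanosomes and lysosomes (0.064), and Dcp2, an mRNA decapping enzyme (0.066). The median gene differed by 0.29, and a gene with the same level in all 8 libraries would differ by 0.16. Paics, for example, averaged 83.2 CPM in Bmi1-deleted and 99.1 CPM in control libraries (log2 change −0.25, edgeR adjusted p = 0.605). Rnf2 ranked 668th by this measure, at 0.17, no closer than such a flat gene, and Pcgf3, Pcgf5, Ring1 and Pcgf2 further down, while Pcgf1 and Pcgf6 had too few counts to be ranked. It is a description of 8 libraries, and it was given no test.

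Of the other genes of the Polycomb system, 63 in 7 lists, 0 passed in either direction in edgeR without the block, against 0.0937% of all genes. At an unadjusted p under 0.05 there were 9, or 14.3%, against 8.27% of all genes, and 8 did not overlap between groups, or 12.7% against 5.18%. With the block 1 of the 63 rose, where 2.41% of all genes passed in either direction. DESeq2 called 2 higher, with Cbx8 among them, where 1.01% of all genes passed in either direction.

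The partners of Pcgf1 were the 5 genes Kdm2b, Bcor, Bcorl1, Skp1a and Usp7, with a median log2 change of 0.20 beside 0.01 over all genes. Bcor, a corepressor that binds PCGF1, had 119, 145, 113 and 119 CPM in Bmi1-deleted and 113, 90.3, 90.1 and 95.8 CPM in control libraries. The groups were just apart, and it did not pass (log2 change 0.35, SE 0.13, edgeR adjusted p = 0.468). Its relative Bcorl1 had 116 to 136 CPM in Bmi1-deleted and 79.0 to 111 CPM in control libraries (0.33, SE 0.13, adjusted p = 0.516).

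The 7 partners of Pcgf3 and Pcgf5 had a median of −0.02 and 0 genes apart between groups. Auts2, the neurodevelopmental gene that gives that complex its activating form, had the largest difference of these, −0.17 (edgeR adjusted p = 0.828), and Csnk2b, the regulatory subunit of casein kinase 2, had 0.11 (adjusted p = 0.919). The 10 partners of Pcgf6 had a median of −0.05. E2f6, its DNA-binding repressor, stood at 14.4 ± 2.87 CPM in Bmi1-deleted and 19.4 ± 4.94 CPM in control libraries (adjusted p = 0.721). Cbx3, a heterochromatin protein, stood at 63.7 ± 8.61 and 78.4 ± 8.61 CPM in the same order, without overlap (−0.30, adjusted p = 0.605). Rybp and Yaf2, the alternative subunits of all variant complexes, had −0.07 and −0.39 (adjusted p = 0.942 and 0.734).

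The 11 subunits of canonical PRC1, the complexes of Bmi1 and Pcgf2, had a median of 0.13. At an unadjusted edgeR p under 0.05 there were 5 of them, 4 higher and the other lower, against 8.27% of all genes. CPM did not overlap between groups for 3 of the 11, against 5.18% of all genes. No test of the list was made. Cbx8, a chromobox reader of the PRC2 mark, had 17.1, 15.6, 16.9 and 19.7 CPM in Bmi1-deleted and 8.61, 9.68, 9.95 and 8.15 CPM in control libraries. All deleted libraries were above all controls (log2 change 0.93, SE 0.22), with an edgeR adjusted p of 0.166 and of 0.0768 with the replicate block. In DESeq2 its adjusted p was 0.0193. Cbx2, another chromobox reader, had 0.69 (edgeR adjusted p = 0.575).

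The 12 subunits of PRC2, which writes the methyl mark read by chromobox proteins, had a median of −0.16. Suz12, a core scaffold subunit, had 60.7, 55.7, 53.8 and 49.7 CPM in Bmi1-deleted and 62.3, 82.0, 68.1 and 76.1 CPM in control libraries. They did not overlap, but it did not pass (−0.39, SE 0.13, edgeR adjusted p = 0.428). Epop, an accessory subunit, had −0.34 (adjusted p = 0.875). The 16 genes of H2A deubiquitination, which oppose the ligases, had a median of −0.06, with Asxl3 at 0.32 (adjusted p = 0.68) and Usp3 at −0.30 (adjusted p = 0.75) the largest differences.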

How the data were processed

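RNA was sequenced from over 10000 sorted cells per sample, with 1 ng of RNA per library, a stranded total RNA kit and 2 rounds of 15 PCR cycles. The authors deposited estimated counts per gene as whole numbers, and log2 values of TPM plus 1, made with Salmon 1.2.1 on mm10 per the submitters' processing notes. The annotation, strand setting and bias correction are not known from the sources used here. Symbols came from GENCODE M21, which named 54166 of 54418 genes. No molecular identifiers are mentioned, so counts may include PCR copies and counting errors cover counting only.

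Counts were filtered with filterByExpr, scaled by TMM and tested with edgeR 4.0.16 in R 4.3.3 (robust quasi-likelihood F test) over all genes, with Benjamini-Hochberg adjustment and a threshold of 0.05. The standard error came from the F statistic and the 95% interval from its degrees of freedom. DESeq2 1.42.0 and limma 3.58.1 (trend, robust) were alternatives, and the fit was tested on simulated counts. Bmi1 TPM was compared by exact permutation (scipy 1.17.1). Same-numbered libraries deviated together from their group means, with correlations across genes of 0.124 to 0.186, though only 4 of the 8 matched best with their own number. The replicate number was a block in an alternative. Members and lists were chosen with earlier results of these data known. Named genes were all members, neighbours of Bmi1 within 50000 bases, called genes and the 2 largest log2 changes of each list, and the 5 genes most like Bmi1; 1 gene that this rule names is not reported here.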

Additional observations from a re-analysis of the deposited data

Results flagged for a closer look

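Over the 8 members, 48 sets of 4 libraries were examined (CPM, rescaled TPM and implied transcript length in each group) for a single library far from the other 3. Chance gives about 1 such library in 20 sets, and 3 were found. Pcgf5 stood at 19.8 CPM in Bmi1-deleted library 3 and at 27.4 to 28.2 CPM in the other deleted libraries, and without it the log2 change of Pcgf5 was 0.09 in place of −0.02. The implied length of Ring1 was 1062 bases in Bmi1-deleted library 3 and 1943 to 2115 bases in the others of its group. The implied length of Rnf2 was 2375 bases in control library 3 and 1827 to 1890 bases in the other controls.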

How the results depend on the processing

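Under all 19 alternatives 0 members passed, with Bmi1 and Rnf2 lower in each, apart from Rnf2 on rescaled TPM (0.021). Genes called higher and lower over all genes, 14 and 1, became 113 and 48 in DESeq2, 259 and 121 with no filter on low counts, 116 and 87 in replicates 1 and 2 alone, 23 and 6 in replicates 3 and 4 alone, 3 and 1 in limma on deposited log2 TPM, and 2 and 0 on rescaled log2 TPM. Lower calls were 3 with RLE size factors and 4 with the fibroblast score. With the replicate block, the pairing of same-numbered libraries, they were 273 and 113, the lists of related genes had 1 call and, apart from the exact test of the Bmi1 TPM, no other call described here changed. Related genes had 2 calls in DESeq2 and 1 with no filter. The Bmi1 TPM difference was −1.24 with the replicate block as well, where 16 sign changes allow no exact p below 0.125. Leaving out 1 library gave −1.44 to −1.01, with an exact permutation p of 0.0571, the smallest possible there. Leaving out each library gave 8 to 42 higher genes (42 without control 1) and 0 to 7 lower ones.

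Signs that turned all belonged to changes that did not pass, and the cause was not tested. In replicates 1 and 2 alone Pcgf1 had 0.39, Pcgf2 −0.046, Pcgf3 −0.028 and Pcgf6 0.11, and in replicates 3 and 4 alone Pcgf5 had 0.084. On deposited log2 TPM Pcgf2 had −0.040, Pcgf3 −0.31 and Ring1 −0.36. On rescaled log2 TPM Pcgf3 had −0.15, Pcgf5 0.15 and Ring1 −0.26, and with sex as a covariate Pcgf5 had 0.030. With 1 library left out the log2 change ranged from −0.31 to −0.18 for Bmi1, −0.49 to 0.17 for Pcgf1, −0.020 to 0.30 for Pcgf2, −0.068 to 0.12 for Pcgf3, −0.12 to 0.11 for Pcgf5, −0.31 to 0.067 for Pcgf6, −0.038 to 0.32 for Ring1 and −0.41 to −0.34 for Rnf2. Pcgf1 and Pcgf6 fell under a filter of 10 CPM on average, so they have no value there. Counting error was 13.1% to 17.9% for Pcgf1 and Pcgf6 and 3.59% to 9.38% for the other members.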
